A study of Mus musculus with 10 samples.

Results

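Vip, Zfp979, Zfp991, Hddc3, Ttc9, Zc3h7b and Lmo1 are 7 genes whose level differed between a conditional Dicer knockout line of mouse embryonic fibroblasts and a wild-type line with and without drug. They were chosen from earlier results of the same arrays because they parted the lines whatever the treatment, out of 18193 genes with a probe set of their own on the array. The array carries 12 probe sets for them, of which 8 passed a filter on low signal, a group mean of at least 4 on the log2 scale in 1 group or more. Since the gap between the lines chose the genes, it is given as a description with no test. The response to the drug within each line was tested.

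Embryonic fibroblasts are cells grown out of mouse embryos, and Dicer is the enzyme that cuts microRNA precursors. The 6 arrays of the conditional knockout (CDKO) line came from cells with a conditional Dicer allele that were untreated or had received 1 µM or 5 µM of 4-hydroxytamoxifen (OHT), and the 4 arrays of the wild-type (WT) line from cells that were untreated or had received 5 µM. Treatment lasted 4 days, every culture was grown in DMEM with 10% serum, and each of the 5 groups held 2 arrays. OHT binds the estrogen receptor and is widely used to activate Cre recombinase in the form of a fusion with the receptor. No source used here names the recombinase, the mouse strains or the number of embryos behind each line. A gap between the lines is a gap between 2 cell lines and cannot be told apart from any other difference between them. A description field in the labels calls all 10 samples conditional knockouts, while the titles name 4 as WT, and the titles were followed. It is not stated that the replicate arrays were separate cultures, so p-values measure the spread between these arrays, which may be technical.

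The genes fall into several classes of protein. Vip encodes vasoactive intestinal peptide, a secreted neuropeptide that acts through the G protein-coupled receptors Vipr1 and Vipr2 and raises cAMP in the target cell. Zfp979, known earlier as Ssm1b, a modifier that differs between mouse strains, and Zfp991 are zinc finger genes of a cluster on chromosome 4. Such clusters hold many similar copies and encode DNA-binding proteins, most of which recruit silencing complexes through a KRAB domain. Lmo1 encodes a LIM-only protein that bridges transcription factors without binding DNA itself and is known from T-cell leukaemia and neuroblastoma. Zc3h7b encodes a CCCH zinc finger protein that binds RNA. Hddc3 encodes MESH1, an HD-domain hydrolase, and Ttc9 encodes a protein with tetratricopeptide repeats.

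The promoters of Vip and Zfp979 are shown because these were the member genes whose levels followed each other most closely over the 10 arrays. Both genes were chosen for a gap between the lines and were lower in CDKO cells, so this likeness mostly follows that gap. Both promoters are from RefSeq on GRCm38.p6, 5′ to 3′ along the gene, with 250 bases before the annotated start and 50 after it. Vip lies on the plus strand at chr10:5638968-5639267 and Zfp979 on the minus strand at chr4:147642459-147642758. Capitals mark the cAMP response element core TGACGTC and the TATA box TATAAA, searched on both strands.
Vip: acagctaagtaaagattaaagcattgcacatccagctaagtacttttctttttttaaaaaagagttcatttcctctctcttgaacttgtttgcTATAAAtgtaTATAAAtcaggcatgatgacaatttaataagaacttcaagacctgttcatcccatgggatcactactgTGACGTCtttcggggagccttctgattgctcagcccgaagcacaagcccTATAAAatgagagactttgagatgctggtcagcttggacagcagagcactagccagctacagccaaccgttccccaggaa
Zfp979: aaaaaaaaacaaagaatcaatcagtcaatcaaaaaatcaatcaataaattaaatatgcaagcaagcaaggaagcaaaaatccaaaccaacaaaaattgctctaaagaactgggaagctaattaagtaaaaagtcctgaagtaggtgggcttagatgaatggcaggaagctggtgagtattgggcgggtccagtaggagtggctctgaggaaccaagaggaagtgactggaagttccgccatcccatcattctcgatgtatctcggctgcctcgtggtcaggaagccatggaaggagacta
The Vip promoter held TGACGTC once, 79 bases before the start, and TATAAA at 3 places, 157, 147 and 30 bases before it. Of all 32851 RefSeq promoters of this length, 3.21% held TGACGTC and 13.6% held TATAAA. The Zfp979 promoter held neither. The AP-1 motif TGANTCA, in 7.81% of all promoters, was found in neither of the printed promoters but in 1 of the 2 entries of Lmo1, and the estrogen response element GGTCANNNTGACC, in 0.0700% of all promoters, in none of the 7 entries that matched 6 of the genes. The Vip and Zfp979 promoters held 4 and 5 CpG, against a median of 7 over all promoters, and those of Hddc3, Ttc9, Zc3h7b and Lmo1 held 20 to 39.

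The arrays measured log2 signal per probe set, and between 41.8% and 43.2% of the probe sets read 4 or above in an array. Fibroblast markers were high in both lines, with a mean over 11 genes of 10.8 to 12.3 in CDKO arrays and 11.8 to 12.4 in WT arrays. Macrophage and leukocyte markers were also present, with a mean over 13 genes of 6.11 to 8.27 in CDKO arrays and 8.58 to 8.65 in WT arrays, so they ran in the direction of the genes that were higher in WT. Of 11 neural and glial markers on the array 5 passed the filter, with a mean over all 11 of 4.42 to 4.98 in CDKO and 4.52 to 4.56 in WT arrays. None of the 5 endothelial markers passed it. Epithelial markers had a mean over 5 genes of 4.00 to 6.14 in WT arrays and 3.59 to 4.76 in CDKO arrays. Skeletal muscle markers had a mean over 7 genes of 3.13 to 5.48 in WT arrays and 2.95 to 3.23 in CDKO arrays. With OHT in WT cells 2 of 3 and 5 of 5 tested members were called lower, where 5.73% of all tested probe sets were. Krt8, Cdh1, Myl1, Actc1, Myh3 and Tnni1 passed the filter only through untreated WT cells, which nearly fixed a fall from that group. The 18S ribosomal RNA control read 11.6 and 11.2 in untreated WT, 10.2 in 1 CDKO array at 1 µM and 5.21 to 8.44 elsewhere. The median SD between replicates was 0.29 to 0.34 in the CDKO groups and 0.072 to 0.099 in the WT groups. The part of these differences in the results was not tested, and in whole cultures fewer cells of a type and less RNA per cell cannot be told apart.

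Vip read near background in every CDKO array and well above it in every WT array. Its log2 values were 3.46 and 3.05 in untreated CDKO cells, 3.01 and 3.01 at 1 µM, 3.07 and 2.41 at 5 µM, 8.06 and 8.19 in untreated WT cells and 10.10 and 10.11 in WT cells at 5 µM. No CDKO array came near a WT array: the interval between the lines, from the highest CDKO to the lowest WT array, was 4.61 log2 units, rank 5 among the 20681 probe sets tested. The mean difference between the lines, CDKO minus WT, was -6.12, with -4.87 untreated and -7.37 at 5 µM. Because all CDKO values lay under 4, these differences are against background and are not ratios of transcript amounts. In order of level the groups ran from WT at 5 µM through untreated WT to the CDKO groups, and the 3 CDKO groups did not differ beyond the error of the fit.

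Zfp979 showed the same order of lines at a lower level. It read 2.89 and 2.73 in untreated CDKO cells, 2.65 and 2.69 at 1 µM, 2.66 and 2.63 at 5 µM, 5.44 and 6.21 in untreated WT cells and 7.47 and 6.70 in WT cells at 5 µM (log2). The CDKO arrays spanned less than the interval of 2.55 that parted them from the WT arrays (rank 17), and CDKO minus WT was -3.75, against background as for Vip. Zfp991 ran the other way. Its probe set 1424784_at read 8.93 and 8.47 in untreated CDKO cells, 8.36 and 8.37 at 1 µM, 9.01 and 8.91 at 5 µM, 3.98 and 3.55 in untreated WT cells and 3.29 and 5.06 in WT cells at 5 µM. The interval between the lines was 3.30 (rank 11) and CDKO minus WT was 4.70, again against background, since 3 of the 4 WT arrays lay under 4. The SD between the arrays of treated WT cells, 1.26 (n = 2), was the widest of the 5 groups at this probe set. On GRCm38.p6 the annotation places 14 genes between Zfp991 and Zfp979, of which 1, Zfp982, had a probe set of its own on the array, and it read below the filter with CDKO minus WT of 0.031.

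Lmo1 was the gene with the narrowest interval between the lines. It read 4.54 and 3.74 in untreated CDKO cells, 3.62 and 4.51 at 1 µM, 2.21 and 3.56 at 5 µM, 7.39 and 6.25 in untreated WT cells and 5.73 and 5.45 in WT cells at 5 µM (log2). The highest CDKO array, an untreated one, stood 0.90 below the lowest WT array, a treated one (rank 159), and CDKO minus WT was -2.51. Arrays in every CDKO group lay under 4, at 3.74, 3.62, 2.21 and 3.56, so part of this gap is against background. Hddc3 was also lower in CDKO cells, with 5.30 and 3.72 untreated, 4.35 and 4.93 at 1 µM and 4.82 and 4.31 at 5 µM, against 8.40 and 8.49 in untreated and 7.98 and 8.46 in treated WT cells. The interval was 2.67 (rank 16) and CDKO minus WT was -3.76. The untreated CDKO arrays of Hddc3 differed from each other by more than any group mean of that line from another, so the 3 CDKO groups have no order for this gene.

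Zc3h7b and Ttc9 were higher in CDKO cells. Zc3h7b read 7.92 and 8.47 untreated, 8.52 and 9.43 at 1 µM and 7.37 and 8.65 at 5 µM in CDKO cells, and 4.49 and 6.32 untreated and 4.94 and 5.09 at 5 µM in WT cells (log2). Its untreated WT arrays differed by more than the interval of 1.05 between the lines (rank 115), and CDKO minus WT was 3.19. Ttc9 read 6.14 and 6.75, 6.62 and 7.31, and 6.52 and 7.78 in CDKO cells at 0, 1 and 5 µM, and 3.33 and 2.93 untreated and 4.61 and 4.17 at 5 µM in WT cells. The interval was 1.53 (rank 56) and CDKO minus WT was 3.10. The untreated WT arrays lay under 4, so this gap and any change of Ttc9 with OHT in WT cells are measured against background. In all, 7 of the 8 tested probe sets of these genes had all CDKO arrays on 1 side of all WT arrays, as the choice of genes fixed, against 8.17% of all tested probe sets. Of these 3 were above and 4 below, against 4.09% and 4.08% of all tested probe sets.

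**Figure D1:**
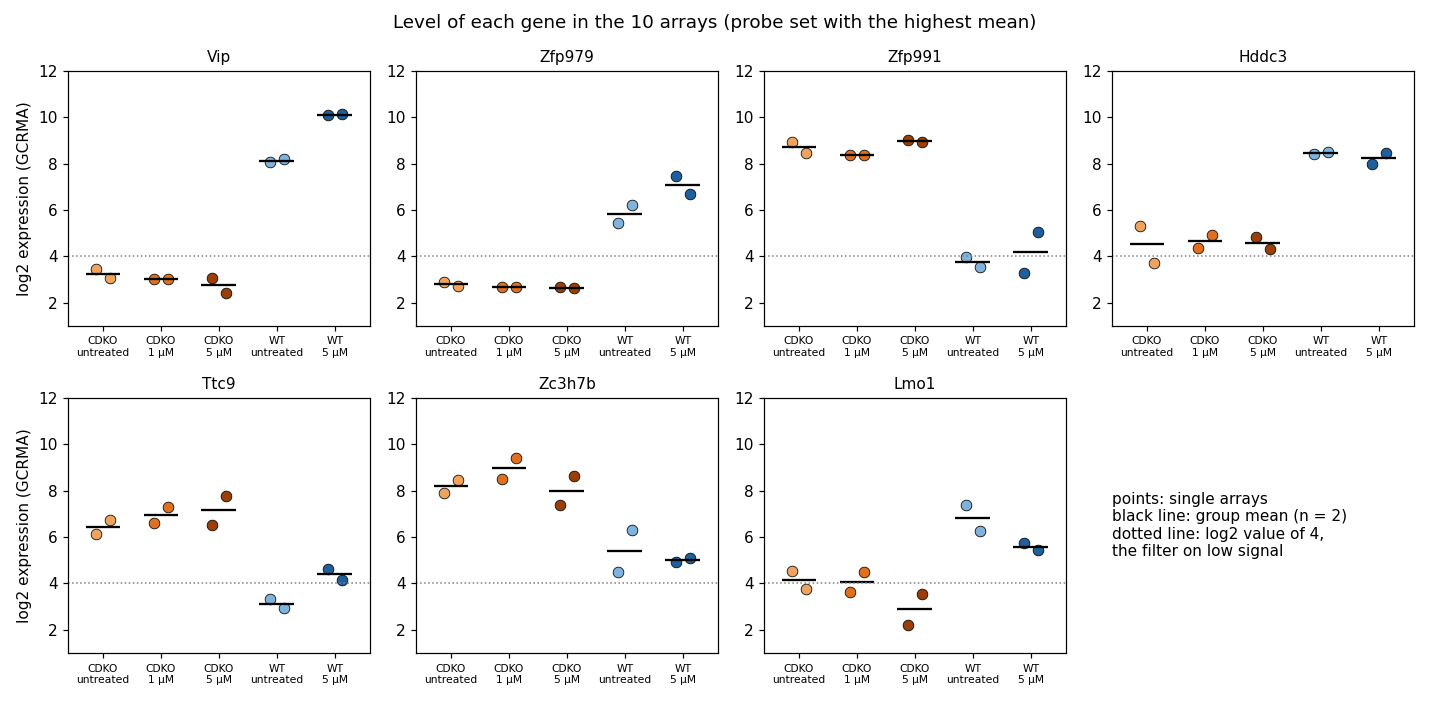
Log2 expression of the 7 genes, each at the probe set with the highest mean, in the 10 arrays by group (points, single arrays; black lines, group means of 2 arrays; dotted line, the filter at 4). In each panel the CDKO arrays (orange) and the WT arrays (blue) do not overlap, and Vip in WT cells goes from 8.06 and 8.19 untreated to 10.10 and 10.11 at 5 µM.

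The other probe sets of the same genes did not show these gaps. Zfp991 had a second probe set above the filter, 1451477_at, which the platform annotation ties to the same GenBank entry as 1424784_at. It read 5.61 and 5.81, 5.50 and 5.08, and 6.96 and 6.27 in CDKO cells at 0, 1 and 5 µM and 6.27 and 6.14, and 7.07 and 7.06 in WT cells at 0 and 5 µM. The lines overlapped, and CDKO minus WT was -0.76, opposite in sign to 4.70 at 1424784_at; it was -0.35 with only the CDKO arrays whose spike-in controls read high, as described further on. The third probe set of Zfp991, 1440518_at, read 2.10 to 2.21 in all arrays. Similar copies in the cluster can share probes, so the level assigned to Zfp991 is uncertain. A second probe set of Hddc3 (1452875_at, 2.33 to 2.56) and of Zc3h7b (1448006_at, 2.13 to 2.15) stayed at background in both lines. The second probe set of Ttc9, 1436237_at, read 2.64 to 4.10 in CDKO arrays and 2.60 to 2.68 in WT arrays, overlapping and below the filter as group means. Vip, Zfp979 and Lmo1 had a single probe set each, so that no other probe set bears on their gap.

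**Figure D2:**
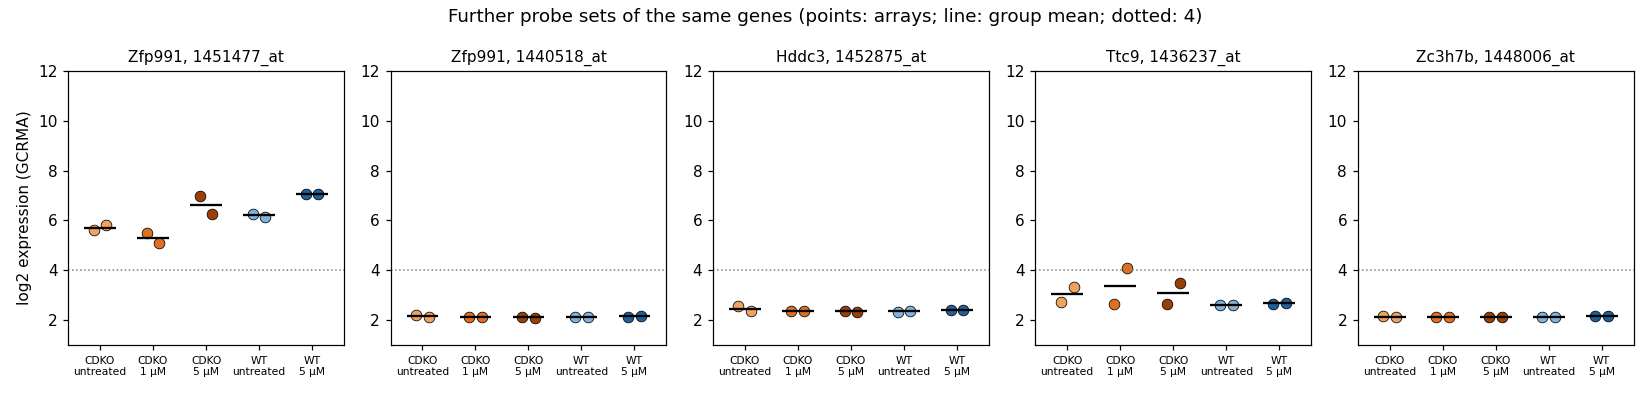
Log2 expression of the further probe sets of Zfp991, Hddc3, Ttc9 and Zc3h7b in the 10 arrays (points, single arrays; lines, group means of 2 arrays; dotted line, the filter at 4). Only Zfp991 1451477_at has group means above the filter, and its CDKO and WT arrays overlap.

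Between treated and untreated cells 1 of the 8 tested probe sets passed the test, and only in WT cells. Vip rose by 1.98 ± 0.27 (log2, SE; 95% interval 1.36 to 2.60; n = 2 and 2) with 5 µM OHT in WT cells, and both treated arrays lay above both untreated ones (limma with Benjamini-Hochberg adjustment over all tested probe sets, adjusted p = 0.00955). Vip thus did not keep 1 level across the WT arrays. It was the 1 of 8 called, where 9.23% of all tested probe sets were called in this comparison and 3.51% were called higher. With any 1 of the 4 WT arrays left out the estimate stayed between 1.92 and 2.05 while the call was lost, with adjusted p between 0.0686 and 0.103, and a group then holds 1 array whose spread is taken from the others. Treatment in WT cells moved with the 18S ribosomal RNA control, which read 11.6 and 11.2 in untreated and 6.16 and 5.98 in treated arrays, and OHT and that difference cannot be told apart.

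Other genes had intervals that excluded 0 in WT cells without passing the adjusted test. Zfp979 differed by 1.26 ± 0.33 (interval 0.48 to 2.04, adjusted p = 0.0576), Zfp991 1451477_at by 0.86 ± 0.28 (0.21 to 1.51, adjusted p = 0.0895) and Ttc9 by 1.26 ± 0.47 (0.17 to 2.35, adjusted p = 0.119), all in limma. In each of these the treated arrays lay above the untreated ones. With Vip, 4 of the 8 probe sets had an unadjusted p under 0.05, where 30.6% of all tested probe sets had. Lmo1 differed by -1.24 ± 0.59 (-2.61 to 0.13), and Zfp991 1424784_at, Hddc3 and Zc3h7b by 0.41, -0.22 and -0.39 with intervals that held 0. None of the 8 intervals lay within 1 log2 unit of 0 on both sides, so for no gene do these arrays show that WT cells did not respond.

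In CDKO cells no tested probe set of the genes passed the test at either dose. At 5 µM against untreated 0 of 8 were called in limma, with 1 at an unadjusted p under 0.05, where 0.145% of all tested probe sets were called and 8.89% had such a p. Vip differed by -0.51 ± 0.27 (log2, SE; 95% interval -1.14 to 0.11; limma adjusted p = 0.680), and Lmo1 by -1.26 ± 0.59 (-2.63 to 0.11; adjusted p = 0.614). Ttc9 differed by 0.71 (-0.39 to 1.80), Zfp991 1424784_at by 0.26 (-0.95 to 1.47), Hddc3 by 0.057 (-1.13 to 1.24), Zfp979 by -0.17 (-0.95 to 0.62) and Zc3h7b by -0.19 (-1.74 to 1.37). The interval of Zfp979 was the 1 of 8 that lay within 1 log2 unit of 0, at a level under 4 in all 3 CDKO groups, where a fall could not have been read.

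At 1 µM against untreated 0 of 8 probe sets were called in limma and 0 had an unadjusted p under 0.05, with differences of -0.42 to 0.78, where 0.00% of all tested probe sets were called and 3.43% had such a p. Between the doses, 5 µM against 1 µM, 0 of 8 were called, and 1 had an unadjusted p under 0.05, where 0.169% of all tested probe sets were called and 12.9% had such a p. That 1 was Zfp991 1451477_at, the probe set that did not part the lines. It differed by 1.32 ± 0.28 (0.67 to 1.98; limma adjusted p = 0.156) between the doses and by 0.91 ± 0.28 (0.25 to 1.56; adjusted p = 0.349) between 5 µM and untreated cells. Its call between the doses was gained without the first 1 µM array (adjusted p = 0.0359) or without the second 5 µM array (adjusted p = 0.0410). The comparisons of the 2 doses with untreated cells share the untreated arrays.

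Whether CDKO and WT cells responded to 5 µM differently was tested as an interaction in limma. For Vip it was -2.50 ± 0.38 (95% interval -3.38 to -1.62; adjusted p = 0.0565), with -0.51 in CDKO and 1.98 in WT cells. It did not pass the threshold as fitted and passed it under 8 of 19 alternatives, among them without either CDKO array at 1 µM (adjusted p = 0.0493 and 0.0490) and without the first CDKO array at 5 µM (adjusted p = 0.0480). For Zfp979 it was -1.42 ± 0.47 (-2.53 to -0.32; adjusted p = 0.300). In CDKO cells both genes read at background, where a fall could not be read and a rise from below background might not be. The part of this limit in the interaction was not tested. The other 6 probe sets differed by -0.56 to 0.28. In all 0 of 8 were called, and 2 had an unadjusted p under 0.05, where 0.348% of all tested probe sets were called and 12.5% had such a p.

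**Figure D3:**
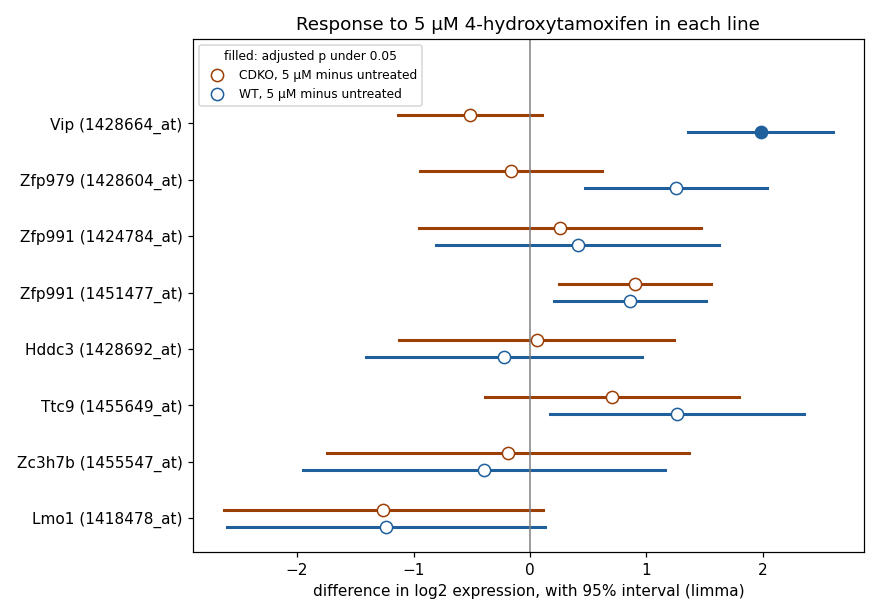
Difference in log2 expression between 5 µM OHT and untreated cells in each line for the 8 tested probe sets (points, limma estimates from 2 arrays a group; bars, 95% intervals; filled, adjusted p under 0.05). Vip in WT cells, at 1.98 (1.36 to 2.60), is the only filled point, and most intervals reach beyond 1 log2 unit.

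Within the CDKO line some of the genes moved with the hybridisation spike-in controls, which are added at a fixed amount. Their mean log2 signal was 9.65 to 10.2 in 4 CDKO arrays (1 untreated, both at 1 µM, 1 at 5 µM) and 10.975 to 11.7 in the other CDKO arrays and all WT arrays. In CDKO arrays Ttc9 read 6.14 and 6.52 in the higher class and 6.62 to 7.78 in the lower class. Zc3h7b read 7.37 and 7.92 in the higher and 8.47 to 9.43 in the lower class. Zfp991 1424784_at and Vip also did not overlap between the classes, with higher minus lower of 0.44 and 0.39, so this held for 4 of the 8 probe sets, where it held for 29.7% of all tested probe sets. With the CDKO arrays of the higher class alone, CDKO minus WT was -5.85 for Vip, -3.68 for Zfp979, 5.00 for Zfp991 1424784_at, -0.35 for Zfp991 1451477_at, -3.27 for Hddc3, 2.57 for Ttc9, 2.44 for Zc3h7b and -2.83 for Lmo1. The choice of genes fixed the sign of these gaps, except at Zfp991 1451477_at, which did not part the lines.

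**Figure D4:**
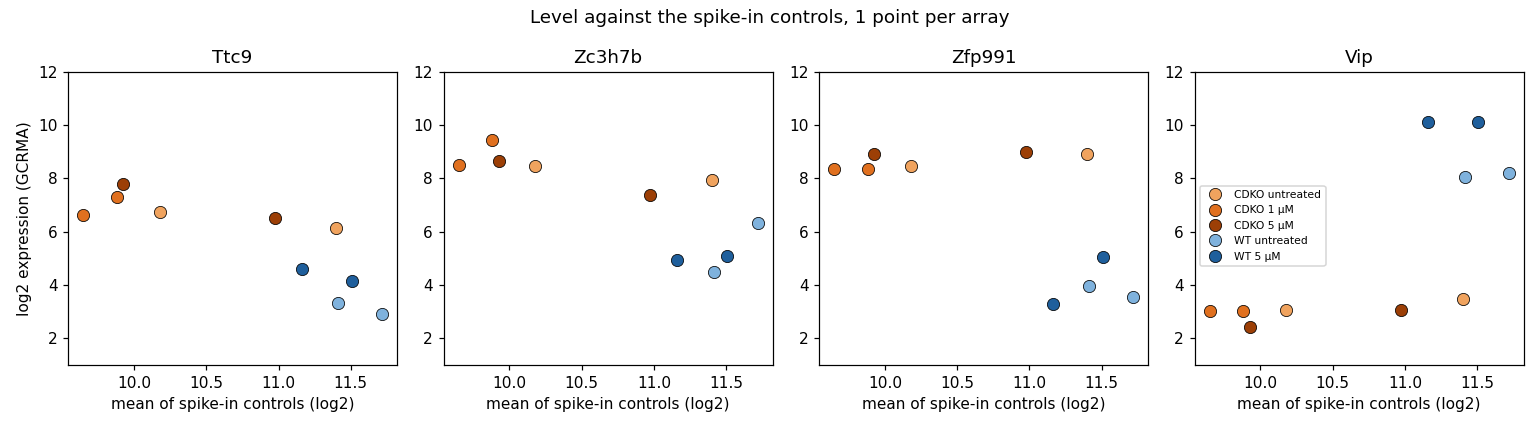
Log2 expression of Ttc9, Zc3h7b, Zfp991 and Vip against the mean log2 signal of the spike-in controls, 1 point per array, coloured by group. Among CDKO arrays Ttc9 and Zc3h7b are lower in the 2 arrays at 10.975 and 11.4 than in the 4 arrays at 9.65 to 10.2, and WT arrays lie apart from CDKO arrays in all 4 panels.

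None of the nearest measured neighbours of the genes on the chromosome parted the lines at its probe set with the highest mean. At that probe set 6 of 13 such genes passed the filter, all 13 overlapped between the lines, and CDKO minus WT was -2.02 to 0.13. Myct1, next to Vip, did not pass there but did at another probe set, 1452072_at, which also overlapped (CDKO minus WT -0.996). Since 8.17% of all tested probe sets parted the lines, a count of 0 among so few genes is near the background. The widest was Fbxo5, an inhibitor of the anaphase-promoting complex that lies next to Vip, at -2.02, with 6.01 to 8.44 in CDKO and 7.42 to 10.7 in WT arrays. Unc45a and Man2a2, on either side of Hddc3, differed by -0.11 and -0.57, Rangap1 beside Zc3h7b by -0.090 and Med6 beside Ttc9 by 0.13.

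**Figure D5:**
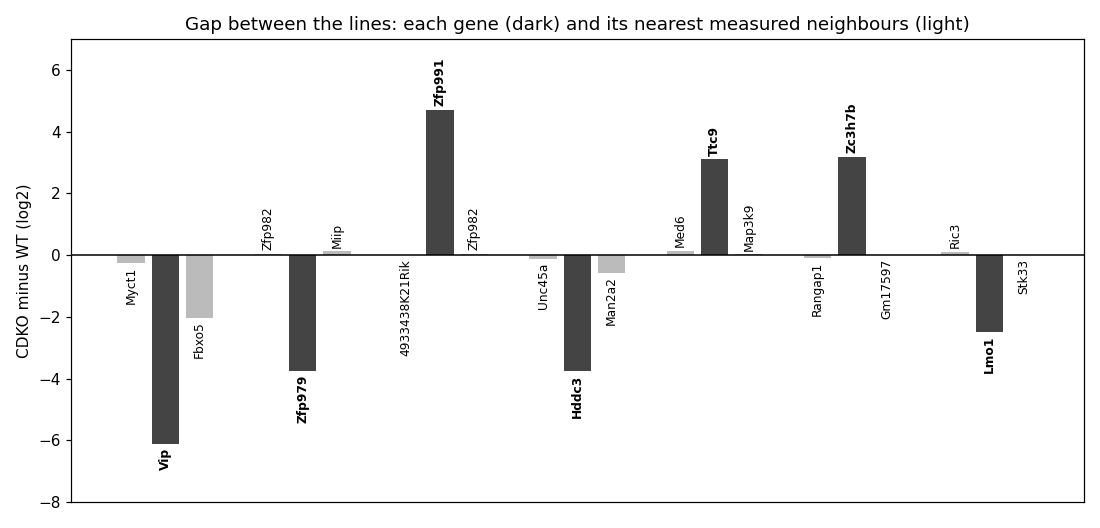
CDKO minus WT (log2, means of 6 and 4 arrays) of each gene (dark bars) and of the nearest measured gene on either side of it (light bars), each at its probe set with the highest mean. The genes run from -6.12 (Vip) to 4.70 (Zfp991), and their neighbours from -2.02 (Fbxo5) to 0.13.

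The genes whose pattern was most like that of each gene over the 10 arrays were found among 10320 genes by Pearson r, which here mostly follows the gap between the lines. Vip and Zfp979 were each other's closest match (r = 0.991), followed for both by H3f3b and C1qtnf12 (0.975 to 0.980). Znf41-ps was closest to Zfp991 (r = 0.987; CDKO minus WT 2.93), ahead of Mtif2 and Niban1. Sdc4, a heparan sulfate proteoglycan, was closest to Hddc3 (r = 0.979; -2.85), ahead of Ciapin1 and Tmem87a. Ttc9 was followed by Supt3, Cdc14b and Rgs17 (0.967 to 0.973), and Zc3h7b by Rlf, Cd200 and Adgra2 (0.946 to 0.975). The closest to Lmo1 were Tmem176a, Tmem176b and Sfxn1 (0.948 to 0.952).

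Relatives of the genes were counted in the same tests. Of 12 related peptides and receptors, 1 passed the filter, the receptor gene Adcyap1r1, with group means of 5.61, 6.78 and 5.78 in CDKO cells at 0, 1 and 5 µM and 4.18 and 3.89 in WT cells, and it was not called in any comparison. The VIP receptor genes stayed at background in every group, Vipr1 with means of 2.81 to 2.91 and Vipr2 with 2.33 to 2.37. Of the LIM-only proteins and partners 9 of 14 passed the filter, and 1 was called lower in CDKO cells, both untreated and at 5 µM, where 4.28% and 0.856% of all tested probe sets were. This was Lmo2, a paralog of Lmo1 needed for blood formation, with means of 3.29, 2.75 and 3.32 in CDKO and 4.71 and 4.99 in WT cells (limma adjusted p = 0.0244 untreated and 0.0306 at 5 µM). Its CDKO means all lay under 4, so it passed the filter through the WT groups alone and its difference is against background. Lmo4, which also binds Ldb1, was not called, with CDKO minus WT of 0.64.

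Among CCCH zinc finger genes 2 of 15 tested were called between the untreated lines, where 4.28% of all tested probe sets were called lower. These were Zc3h18 and Zc3h4 (both -1.56, CDKO minus WT). Both fell with OHT in WT cells (-1.17 and -1.22), where 5.73% did. The 2 comparisons share the untreated WT arrays, so they are not independent. At 5 µM CDKO minus WT was -0.25 for Zc3h18 and -0.36 for Zc3h4. In limma 0 of the 15 were called between the lines at 5 µM. At an unadjusted p under 0.05 there were 3 higher and 1 lower, where 9.33% and 6.26% of all tested probe sets were. Zc3h7a, the paralog of Zc3h7b, was not called, with CDKO minus WT of 0.69. The widest gap in this list was that of Zfp36l1 (-1.13), with all CDKO arrays below all WT arrays, and it was not called either. None of 18 tetratricopeptide repeat genes and none of 7 HD-domain genes, Hddc2 among them, was called in limma between the lines, untreated or at 5 µM. At an unadjusted p under 0.05 there were 1 and 2 of the former and 0 and 1 of the latter. Over all tested probe sets 6.58% and 1.80% were called in these comparisons and 25.01% and 15.6% had such a p, so counts of 0 in lists of this size say little. Of 337 genes with a Zfp symbol 242 were tested. In untreated cells 1 was called higher in CDKO (Zfp365) and 11 lower, where 2.30% and 4.28% of all tested probe sets were (6.58% in either direction). At 5 µM 3 were called higher and 0 lower, where 0.943% and 0.856% were (1.80% in either direction). In WT cells 0 rose and 23 fell with OHT, where 3.51% and 5.73% did. Zfp423 and Zfp395, called lower in both comparisons, passed the filter only through untreated WT cells, which nearly fixed these differences. The comparison of the untreated lines and that within WT cells share the untreated WT arrays, so the 11 and the 23 are not independent. At an unadjusted p under 0.05, 19 stood higher and 8 lower in CDKO at 5 µM, where 9.33% and 6.26% of all tested probe sets did, and 5 stood higher and 72 lower with OHT in WT cells, where 13.7% and 16.9% did. Their median difference was -0.27 between untreated lines, 0.12 at 5 µM and -0.53 with OHT in WT cells, against -0.047, 0.044 and -0.093 over all tested genes. The zinc finger genes with the widest gaps after the 2 described were Zfp458 (CDKO minus WT -2.29), Zfp30 (-2.21), Zfp874a (2.19) and Zfp945 (-1.76), so that members of this class lay on both sides. Group means lay under 4 for Zfp458 in CDKO and for Zfp874a in WT cells, so these gaps are against background. Zfp945 overlapped between the lines, with -2.44 untreated and -0.48 at 5 µM.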

How the data were processed

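Total RNA from 10 fibroblast samples was hybridised to Affymetrix arrays. The authors deposited 1 log2 value for each probe set in each sample. The submitters' processing notes name GCRMA, with no version or settings. Arrays were grouped by line and dose from the titles. Probe sets were named through GEO's platform annotation, which can be old: 34945 had 1 symbol, 932 several and 9160 none. Gene IDs of 34741 matched RefSeq on GRCm38.p6, which gave neighbours and promoters.

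Of 45101 probe sets, 64 were controls and were not used. The 20681 whose highest group mean reached 4 were fitted on 5 group means in R 4.3.3 with limma 3.58.1, leaving 5 residual degrees of freedom. A call is an adjusted p (Benjamini-Hochberg) under 0.05. The fit was tested on simulated data. Spread is pooled over all groups. The median SD was larger among CDKO replicates, but single probe sets differ: Zfp979 scattered more in WT (SD 0.55 in both groups) than in CDKO cells (0.020 to 0.12), so its WT test uses too small a spread. SD is between arrays and SE from the model; the number of arrays limits precision.

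The genes and gene lists were chosen with earlier results of these data known. All probe sets of the 7 genes are named, with the 3 genes of highest r for each and the nearest measured neighbours. The relatives named were genes that were called, close relatives or receptors of a member or, in some lists, those with the widest gap. The widest gaps among tetratricopeptide repeat and HD-domain genes are not named. Other genes are named where a sentence needed them. Zfp genes were listed by symbol. Lists are described by counts and medians, with 1 probe set per gene. Replicate numbers were not taken as pairs: replicate differences correlated at -0.453 between untreated and 1 µM CDKO cells and at 0.431 between untreated and 5 µM. Each array was left out in turn, and other alternatives were array weights, centring, quantile normalization, a fit of the compared groups alone, a replicate block, a robust trended prior, and a filter at 6 or none. A block for the spike-in class and CDKO arrays of the higher class alone were added after seeing the data.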

Additional observations from a re-analysis of the deposited data

How the results depend on the processing

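Under every one of 19 alternatives, 0 of the 8 probe sets were called at 5 µM or at 1 µM against untreated CDKO cells. Between the doses the count of 0 kept except for 0 to 1 with an array left out. In WT cells the count of 1 became 2 with quantile normalization, 5 with array weights and 3 with the compared groups alone, and 0 to 2 with an array left out. It was 0 without each WT array and 2 without either CDKO array at 1 µM. The interaction count of 0 became 1 with centred arrays, quantile normalization, array weights, the compared groups alone and the spike-in class as a block, each time through Vip, and 0 to 1 with an array left out. The replicate block left the member counts at 0, 0, 0, 1 and 0, with an adjusted p of 0.0189 for Vip in WT cells and 0.111 for its interaction. Over all alternatives Vip in WT cells lay between 1.92 and 2.05 and its interaction between -2.83 and -2.17 (adjusted p 0.0178 to 0.352). Counts over all probe sets depended more on the setting, with 1909 in WT cells against 65 to 12458, 30 against 0 to 169 at 5 µM in CDKO cells, 0 against 0 to 521 at 1 µM, 35 against 0 to 1989 between the doses and 72 against 9 to 213 for the interaction. The cause was not tested.

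Lmo1 at 1 µM became 0.046 with quantile normalization, Vip at 1 µM 0.024 with the spike-in block, the interaction of Lmo1 0.034 with centred arrays and that of Zfp991 1451477_at -0.12 with quantile normalization. With each array left out in turn, differences that were uncalled took either sign. For 5 µM against untreated CDKO cells the ranges were Hddc3 -0.74 to 0.85 and Zc3h7b -0.83 to 0.45 (log2). For 1 µM against untreated CDKO cells the ranges were Lmo1 -0.52 to 0.37 and Hddc3 -0.66 to 0.93 (log2). For 5 µM against 1 µM the ranges were Ttc9 -0.45 to 0.82, Hddc3 -0.37 to 0.22 and Vip -0.60 to 0.060 (log2). In WT cells the ranges were Zc3h7b -1.30 to 0.52, Hddc3 -0.46 to 0.017 and Zfp991 1424784_at -0.48 to 1.30 (log2). For the difference between the lines in response the ranges were Zfp991 1424784_at -1.04 to 0.74, Zfp991 1451477_at -0.30 to 0.39, Zc3h7b -0.71 to 1.12, Lmo1 -0.70 to 0.65, Hddc3 -0.51 to 1.08 and Ttc9 -1.19 to 0.076 (log2). The gaps between the lines ran from -6.23 to -6.01 for Vip, 4.26 to 5.15 for Zfp991 1424784_at and -2.79 to -2.22 for Lmo1 with each array left out, and the choice of genes fixed their sign. Signals under 4 limit what can be read of Vip, Zfp979 and Lmo1 in CDKO cells and of Ttc9 and Zfp991 1424784_at in WT cells. For Lmo1 this holds for both CDKO arrays at 5 µM and for some of the other CDKO arrays.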

Other observations

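Farther out from Vip on chromosome 10, genes that parted the lines in the opposite direction were found after their values had been seen, and are given without a test. In RefSeq order the measured genes run Esr1, Syne1, Myct1, Vip, Fbxo5, Mtrf1l and Rgs17. At 1 of its 3 probe sets, 1421244_at, Esr1, the gene of estrogen receptor alpha, read 8.66 to 9.90 in CDKO arrays and 2.63 to 4.57 in WT arrays. CDKO minus WT there was 5.55. The other probe sets of Esr1 did not pass the filter and overlapped between the lines, so their overlap says little about this gap. No source used here names the recombinase, and whether 1421244_at read Esr1 itself or a fusion of a recombinase with the receptor was not tested. Rgs17, a regulator of G protein signalling, was higher in all CDKO arrays at both of its probe sets, by 2.34 and 2.50. The probe sets of Syne1, Myct1, Fbxo5 and Mtrf1l between them overlapped between the lines. Vip itself was lower in CDKO arrays by -6.12.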
